A study of Mus musculus with 6 samples.

Results

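The small leucine-rich proteoglycans are secreted matrix proteins built from leucine-rich repeats, and their mRNA was followed here in fibroblast clones with and without an intact allele of Macf1. The 9 genes were taken by symbol (Bgn, Dcn, Aspn, Omd, Fmod, Prelp, Lum, Ogn and Podn) out of 32101 genes. Of these 9 genes, 8 had a count above 0 and 5 passed the filter on low counts. Macf1 encodes a giant linker of actin filaments and microtubules. Mouse embryonic fibroblasts from mice with loxP-flanked Macf1 were immortalised with the SV40 large T antigen and exposed to the virus AAV8-CMV-Cre, in which the broadly active CMV promoter drives Cre, and lines were then raised from single cells. The 3 het clones came from Macf1flox/+ mice and carry 1 recombined allele (Macf1-/+), and the 3 knockout clones came from Macf1flox/flox mice (Macf1-/-). The het controls therefore also carry large T, the Cre exposure and a recombined Macf1 allele, and no library without these was among the 6. Each library is 1 clone, the mice of origin differ between the genotypes, and the sources used here do not say whether clones of 1 genotype arose independently. Genotype and mouse of origin therefore cannot be told apart, and every p-value measures the spread between these clones.

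Small leucine-rich proteoglycans coat collagen fibrils, set how fibrils grow and pack, and bind growth factors of the TGF-beta family. Most carry chondroitin, dermatan or keratan sulfate chains on a core of leucine-rich repeats, and fragments shed from the matrix can act on cell-surface receptors. Biglycan and decorin are among the typical matrix products of fibroblasts, whereas osteomodulin is best known from bone and tooth. Many of the genes sit side by side in the genome, in clusters that pair members of different classes.

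The 6 libraries held 15661342 to 18209673 estimated counts, assigned by kallisto to annotated transcripts and summed per gene. Levels are CPM, which are counts per library size scaled with the TMM method, and a gene passed where edgeR's quasi-likelihood F test gave an adjusted p under 0.05 over 12746 genes. In the knockout clones 1814 of these genes were lower (14.2%) and 1772 higher (13.9%), 3586 in all (28.1%), and the median log2 fold change was -0.00. Macf1 itself fell from 656 ± 66.7 to 331 ± 27.9 CPM (SD, n = 3 each; log2 fold change -0.99, SE 0.13, edgeR adjusted p = 0.00308), and RNA of this locus was still read in every knockout clone. Of 12 fibroblast markers, 8 of the 10 tested were lower in the knockout clones, and their summed level was 5268 to 7640 CPM in het and 2109 to 4165 CPM in knockout clones. Thy1, a fibroblast surface marker, had a single count in all, and Fap was under 1 CPM in every clone, whereas Vim stood at 2425 ± 350 and 2866 ± 1106 CPM. Some markers of other cell types moved as well. Krt19, the only epithelial marker of 8 that reached 1 CPM, was lower. The summed epithelial level was 16.2 to 56.7 CPM in het and 0.492 to 1.09 CPM in knockout clones. Scx and Egr1 of 5 tendon markers were also lower (summed level 169 to 226 and 41.6 to 54.5 CPM, mostly Egr1), with Tnmd and Thbs4 at 0. Mkx, the other tendon marker, lay higher in each knockout clone than in each het clone. It stood at 2.97 ± 0.485 and 5.52 ± 1.5 CPM and did not pass (edgeR adjusted p = 0.0643). Summed leukocyte markers were 11.5 to 16.5 CPM in het and 21.6 to 26.4 CPM in knockout clones, and Schwann cell markers 6.16 to 6.77 and 10 to 23 CPM, with Cd14 and Erbb3 passing as higher in all 6 clones but not in several runs that left out a clone (adjusted p up to 0.0898 and 0.0704). Of the skeletal muscle markers Des was higher (log2 fold change 1.48, edgeR adjusted p = 0.0412) and Actn2 lower (-1.64, adjusted p = 0.0301). Of 6 adipocyte markers 3 were tested. Fabp4 was lower (-1.76, edgeR adjusted p = 0.0481), while Pparg (0.02, adjusted p = 0.955) and Lpl (-0.11, adjusted p = 0.802) did not pass. None of the tested endothelial and cartilage markers passed. In the 6 runs that each left out a clone, Des passed in 0, Actn2 in 2 and Fabp4 in 1. The part of all these markers in the results was not tested. In bulk RNA, fewer cells that transcribe a gene and less of its RNA per cell cannot be told apart.

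For all 8 genes with counts, each knockout clone lay below each het clone, an order also found in 3805 of 20416 genes with a count (18.6%). Bgn, Ogn, Omd and Aspn fell, Podn did not pass, and Dcn, Fmod, Prelp and Lum had too few counts to be tested. None of the 9 had a higher mean level in the knockout clones, so that 0 were higher by edgeR, by DESeq2, by limma-voom or at an unadjusted p under 0.05. The order between clones of a genotype was not the same for each gene: het replicate 2 was lowest for Bgn, Ogn, Omd, Dcn and Fmod, het replicate 1 for Aspn, Podn and Prelp, and knockout replicate 3 was highest for Ogn, Omd, Aspn and Podn.

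**Figure D1:**
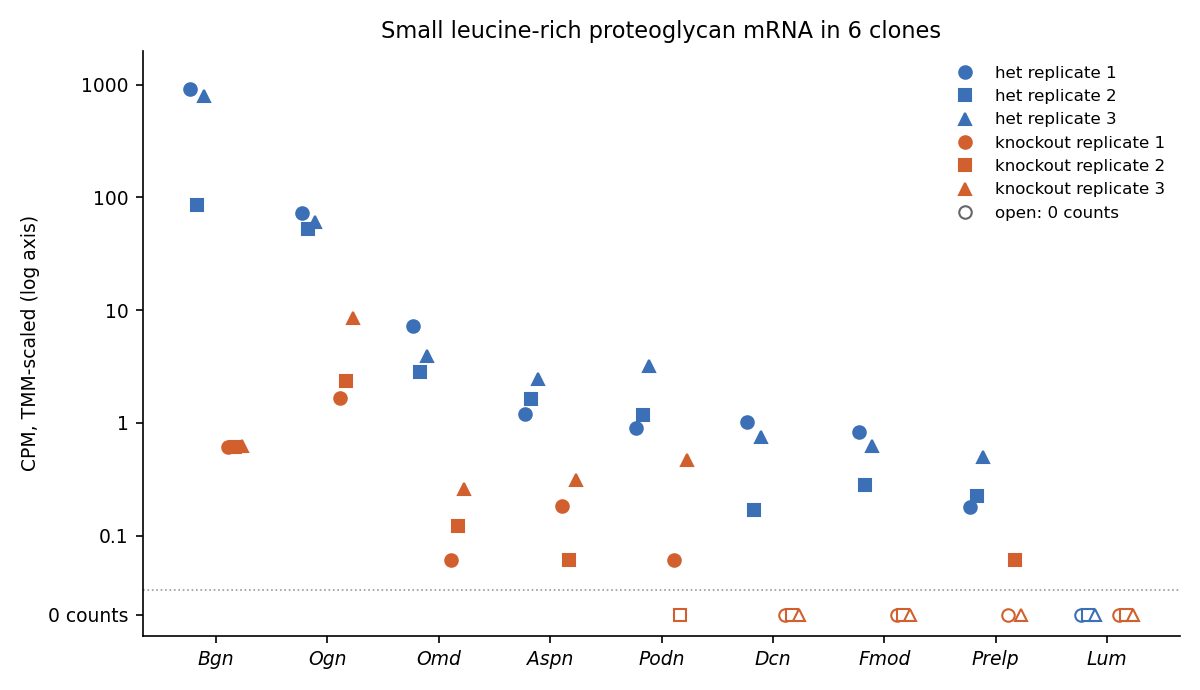
TMM-scaled CPM (log axis) of the 9 genes in each clone. Points are single clones, blue for het and orange for knockout, and open symbols below the dotted line mark 0 counts. Bgn spans from 909 CPM in het replicate 1 to 0.611 CPM in knockout replicate 1, and Lum has no count in any clone.

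The genes lie on 5 chromosomes (GRCm38, GENCODE M21 annotation). Bgn is on the plus strand of the X chromosome (chrX:73483602-73495933). Aspn (chr13:49544443-49567565), Omd (chr13:49582462-49592822) and Ogn (chr13:49608046-49624501) follow each other on the plus strand of chromosome 13. All 3 lie inside the span of Cenpp (chr13:49464023-49652785), a centromere protein gene on the minus strand, and Aspn alone shares exon bases with it, 7 of 2354. Dcn (chr10:97479609-97518143) and Lum (chr10:97565128-97572703) are neighbours on chromosome 10, and Fmod (chr1:134037254-134048277, plus strand) and Prelp (chr1:133910304-133921414, minus strand) on chromosome 1. Podn (chr4:108014791-108096445) is on the minus strand of chromosome 4, which also carries Macf1 (chr4:123349633-123684360).

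RefSeq promoter windows (GRCm38.p6), each 300 bases from 250 before to 50 after an annotated start, were at hand for 7 of the 9 genes. The windows of the 4 genes that fell are given 5′ to 3′ on the plus strand, to set the X-linked gene beside the 3 of the chromosome 13 cluster. Capitals mark the motifs searched on both strands: TATAAA (the TATA box), CCAAT (the CCAAT box) and GGGCGG (the GC box). The AP-1 letters TGANTCA were searched as well.
Bgn, chrX:73483351-73483650: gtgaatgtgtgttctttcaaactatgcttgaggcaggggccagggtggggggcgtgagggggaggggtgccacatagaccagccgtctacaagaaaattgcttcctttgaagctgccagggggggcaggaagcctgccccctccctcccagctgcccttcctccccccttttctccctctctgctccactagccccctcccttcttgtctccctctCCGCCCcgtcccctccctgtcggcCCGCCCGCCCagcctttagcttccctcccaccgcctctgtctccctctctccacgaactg
Aspn, chr13:49544193-49544492: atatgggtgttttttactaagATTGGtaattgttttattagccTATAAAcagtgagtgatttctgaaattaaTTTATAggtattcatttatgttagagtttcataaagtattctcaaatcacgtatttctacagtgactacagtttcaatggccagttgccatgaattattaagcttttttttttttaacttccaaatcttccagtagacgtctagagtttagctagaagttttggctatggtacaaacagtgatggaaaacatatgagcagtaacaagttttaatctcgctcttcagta
Omd, chr13:49582212-49582511: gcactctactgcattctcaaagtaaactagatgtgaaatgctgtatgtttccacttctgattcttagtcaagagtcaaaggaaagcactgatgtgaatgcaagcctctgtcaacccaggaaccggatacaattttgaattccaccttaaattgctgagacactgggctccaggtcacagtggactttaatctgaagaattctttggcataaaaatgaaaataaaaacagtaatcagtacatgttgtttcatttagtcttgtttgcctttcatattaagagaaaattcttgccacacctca
Ogn, chr13:49607765-49608064: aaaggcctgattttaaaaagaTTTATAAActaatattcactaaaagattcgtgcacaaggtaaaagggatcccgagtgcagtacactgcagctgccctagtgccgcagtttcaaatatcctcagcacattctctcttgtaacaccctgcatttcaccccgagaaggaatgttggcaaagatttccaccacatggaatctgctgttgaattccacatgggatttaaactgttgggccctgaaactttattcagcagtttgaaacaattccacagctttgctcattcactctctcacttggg
The 4 windows differed in base composition and shared no motif across all of them. The Bgn window was 63.7% G and C and held 3 GC boxes on the minus strand, at positions -34 to -29, -10 to -5 and -6 to -1 from the start, of which the last pair overlap. The windows of the chromosome 13 cluster were poorer in G and C, at 31% for Aspn, 37.7% for Omd and 42.3% for Ogn, against a median of 52.7% over 32851 windows. Aspn held the TATAAA letters at -207 to -202 on the plus strand and at -178 to -173 on the minus strand, and CCAAT at -229 to -225 on the minus strand. Ogn held TATAAA on both strands at overlapping places, -229 to -224 and -227 to -222, and Omd held none of the motifs. Over all windows 13.6% held TATAAA, 37.4% CCAAT, 35.7% GGGCGG and 7.81% TGANTCA. Among the 8 windows of the 7 genes (Podn has a pair) these numbers were 2, 3, 2 and 0. A match is only a run of letters, and no binding was measured.

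Biglycan and decorin are the class I proteoglycans, which carry chondroitin or dermatan sulfate and bind fibrillar collagen. Bgn, the gene of biglycan, stood at 909, 86.4 and 797 CPM in het replicates 1, 2 and 3, and at 0.611, 0.615 and 0.62 CPM in knockout replicates 1, 2 and 3. The knockout values rest on 10, 10 and 12 counts, too few to tell whether these clones differed. Het replicate 2 lay far below the other het clones and still far above every knockout clone. Bgn fell from 597 ± 446 to 0.615 ± 0.00491 CPM (SD, n = 3 each), a log2 fold change of -9.91 (SE 1.22, edgeR adjusted p = 0.00434). The pooled counts were 29435 and 32, which is 948-fold lower, with an exact 95% interval of 671 to 1386 for counting error only. Without het replicate 2 the log2 fold change was -10.43, and in no alternative did the call end (adjusted p up to 0.0446, with limma-voom). Nearly all of this signal was 1 transcript: the coding Bgn-201, with 8 exons, took 97.7% of the counts, and the other 7 annotated Bgn transcripts shared the rest.

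Dcn, the gene of decorin, was close to silent in every clone. It had 17, 3 and 12 counts in the het clones (1.02, 0.169 and 0.752 CPM) and 0 counts in each knockout clone. Set against a floor of 3 counts over the group, Dcn was at least 11-fold lower in the knockout clones. Dcn did not pass the filter. With other filters, tools or sets of clones it was kept in 6 alternatives (adjusted p 0.00509 to 0.0711), but with no knockout count it could be kept only through its het counts, and these values are no support.

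Aspn encodes asporin, a class I protein that has no sulfate chain and binds collagen and TGF-beta. Its level was 1.2, 1.63 and 2.45 CPM in the het and 0.183, 0.0615 and 0.31 CPM in the knockout clones. The groups did not overlap, and knockout replicate 3 was the highest of its group. Aspn fell from 1.76 ± 0.634 to 0.185 ± 0.124 CPM (SD, n = 3 each; log2 fold change -3.16, SE 0.57, edgeR adjusted p = 0.00861). The pooled counts of 88 and 10 give 9.07-fold lower (interval 4.7 to 19.6). Without knockout replicate 3 the log2 fold change was -3.77. Omd, Aspn and Podn passed the filter through the het clones alone, so that their being tested already depended on a higher level there. The same held for Bgn, whose 10, 10 and 12 knockout counts did not all reach the minimum once scaled to library size.

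The class II genes encode proteins that can carry keratan sulfate. Omd, the gene of osteomodulin, a mineral-binding member of bone matrix, stood at 7.24, 2.81 and 3.95 CPM in the het and 0.0611, 0.123 and 0.259 CPM in the knockout clones. Each knockout clone was far below the lowest het clone. Omd fell from 4.67 ± 2.3 to 0.148 ± 0.101 CPM (SD, n = 3 each; log2 fold change -4.88, SE 0.62, edgeR adjusted p = 0.00271), or 30.1-fold in pooled counts (234 and 8, interval 15 to 70.6). Without knockout replicate 3 the log2 fold change was -5.56. Of 6 bone markers, Runx2 alone reached 1 CPM in any clone, at 58.1 ± 5.87 and 35.1 ± 0.982 CPM (log2 fold change -0.73, edgeR adjusted p = 0.00444). The other 5 had too few counts to show a change, and the part of bone markers in the result was not tested.

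Fmod, the gene of fibromodulin, which binds collagen and guides its cross-linking, had 14, 5 and 10 counts in the het clones and 0 in each knockout clone. That is at least 9.96-fold lower against the floor, at 0.838, 0.281 and 0.627 CPM in the het clones. As for Dcn, the 6 alternatives that kept Fmod (adjusted p 0.00468 to 0.0482) could do so only through its het counts and are no support. Prelp, whose product binds collagen and heparan sulfate of basement membranes, had 3, 4 and 8 counts in the het clones and 0, 1 and 0 in the knockout clones. The ratio of 15.5-fold had an interval of 2.38 to 651, and Prelp passed in 0 of 2 alternatives (adjusted p 0.058 and 0.106). The antisense gene Gm15851, which overlaps 350 of the 3615 exon bases of Prelp, had no counts. Lum, the gene of lumican, had 0 counts in all 6 clones, which allows up to 0.155 to 0.188 CPM in a single library. At this depth Dcn, Fmod and Prelp rest on few reads, and a change in Lum was not detectable.

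Ogn encodes osteoglycin, the class III member of the group, also called mimecan. It stood at 73.1, 52.8 and 61 CPM in the het clones, and at 1.65, 2.34 and 8.53 CPM in the knockout clones. The het clones lay close together, and knockout replicate 3 stood well above the other knockout clones. Ogn fell from 62.3 ± 10.2 to 4.17 ± 3.79 CPM (SD, n = 3 each; log2 fold change -3.88, SE 0.62, edgeR adjusted p = 0.00749), or 14-fold in pooled counts (3135 and 230, interval 12.3 to 16.1). Without knockout replicate 3 the log2 fold change was -4.97 (edgeR adjusted p = 0.000463). Bgn and Ogn thus differed in where a spread was seen: Bgn varied among the het clones and Ogn among the knockout clones. Bgn had too few knockout counts (10, 10 and 12) to resolve a modest spread there.

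Podn encodes podocan, a class V member known from kidney podocytes and smooth muscle. Its level was 0.898, 1.18 and 3.2 CPM in the het and 0.0611, 0 and 0.465 CPM in the knockout clones. The groups did not overlap, but het replicate 3 and knockout replicate 3 each stood well above the rest of their group. The difference of 1.76 ± 1.25 against 0.175 ± 0.253 CPM (SD, n = 3 each; log2 fold change -3.19, SE 0.99) did not pass (edgeR adjusted p = 0.0531). It passed with DESeq2 (adjusted p = 0.0158), with limma-voom (0.0336), without het replicate 1 (0.0411) and without knockout replicate 3 (0.0208, log2 fold change -5.53). Without het replicate 3 the log2 fold change was -2.44. Its highest adjusted p among the alternatives was 0.165. The pooled ratio was 8.96 (87 and 10 counts, interval 4.65 to 19.3).

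Per length of transcript, Bgn held most of the summed mRNA level of the 9 genes in the het clones. In the knockout clones, where that sum was far lower, Ogn held most of it. The 9 genes summed to 788, 121 and 740 TPM (counts divided by annotated transcript length and scaled to the same sum in each library) in het replicates 1, 2 and 3, and to 1.86, 2.65 and 9.23 TPM in the knockout clones. Bgn held 91.7%, 60% and 92% of that sum in the het and 24.5%, 20.3% and 7.15% in the knockout clones. Ogn held 6.76%, 33.9% and 6.51% in the het and 62%, 66.6% and 77.5% in the knockout clones. These shares are of a small remainder in the knockout clones, where Bgn stood at 0.456 to 0.659 TPM and Ogn at 1.16 to 7.15 TPM. Among all genes ranked by TPM, Bgn was at place 195, 2869 and 205 in the het clones and between 12480 and 12634 in the knockout clones. Ogn moved from places 3655 to 4778 in het clones to places 9636 to 11285 in knockout clones. Omd, the next most abundant, had 8.7, 3.59 and 5.15 TPM in the het clones, above Aspn at 0.968 to 2.15 TPM and Podn at 0.631 to 2.35 TPM. The ranges of Aspn, Podn and Dcn (0.191 to 1.08 TPM) overlapped, so their order in het clones is not separable from the spread. Fmod (0.353 to 0.502 TPM) and Prelp (0.147 to 0.281 TPM) also overlapped the range of Dcn, and Lum was at 0 in every clone.

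**Figure D2:**
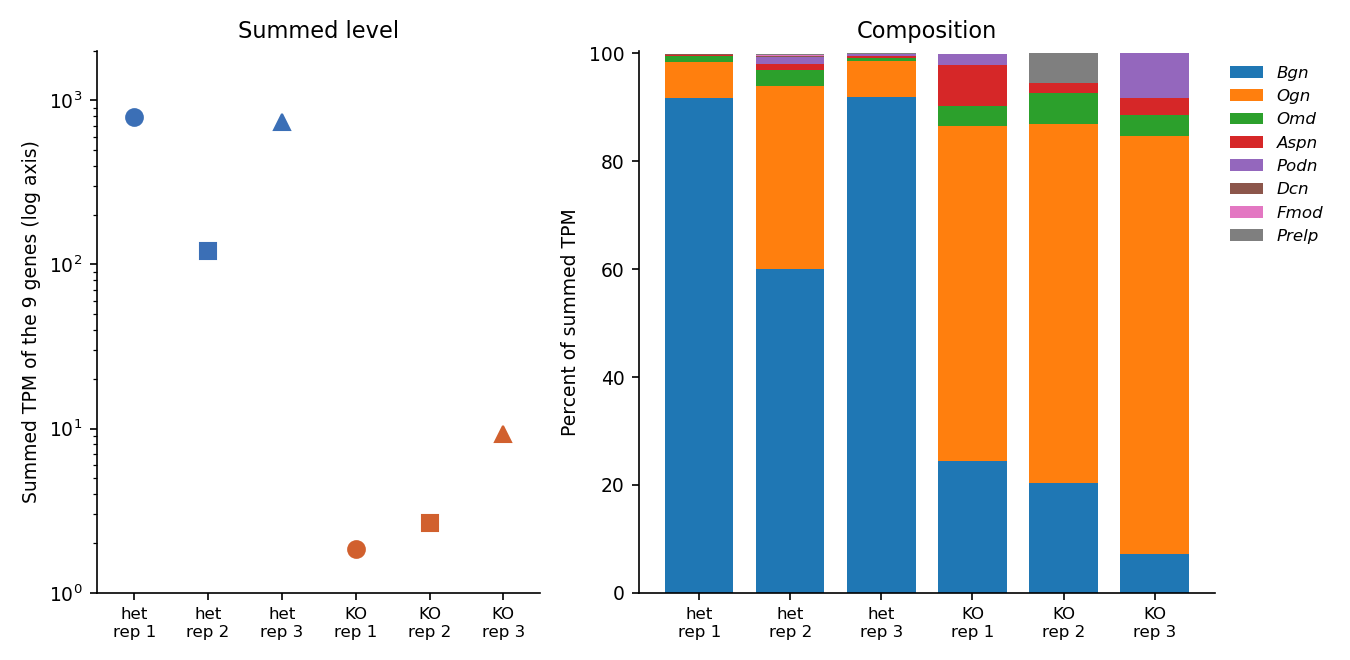
Left, summed TPM of the 9 genes in each clone (log axis; KO, knockout; rep, replicate); right, the percent of that sum from each gene, with bars as single clones. The summed level is 121 to 788 TPM in het and 1.86 to 9.23 TPM in knockout clones, and the main gene is Bgn in the former and Ogn in the latter.

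The authors' deposited FPKM values list a transcript for Bgn, Ogn and Omd only, and show the same order. Bgn had 364, 35.3 and 333 FPKM in het and 0.263, 0.218 and 0.256 FPKM in knockout clones, and Ogn had 28.7, 21 and 24.7 against 0.673, 0.941 and 3.52 FPKM. In the authors' deposited table, made from these same libraries, the log2 fold changes were -9.939 for Bgn, -3.848 for Ogn and -4.836 for Omd, with adjusted p-values of 2.93e-32, 5.11e-12 and 8.15e-11. With transcripts as units, 4 transcripts of the group were tested and 3 were lower (Bgn-201, Ogn-201 and Omd-201; edgeR adjusted p = 0.00966, 0.0225 and 0.0127), where 3.77% of 34656 transcripts were lower. Aspn-201, with 99% of the Aspn counts, had a log2 fold change of -3.26 and did not pass as a transcript (edgeR adjusted p = 0.0824). Podn counts were spread over several transcripts, with 50% on the coding Podn-201.

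Genes around each locus were read to set the proteoglycans beside their stretch of chromosome. For comparison, 13.9% of all tested genes were higher and 14.2% lower. Among the 20 tested genes nearest to Bgn, 10 on each side, 3 were higher and 4 lower (median log2 fold change -0.02). Lowest of the 20 was L1cam, an adhesion molecule gene (log2 fold change -4.78, edgeR adjusted p = 0.00834). Its adjusted p was 0.0673 with limma-voom, and its log2 fold change was -4.16 without het replicate 2. L1cam passed the filter on low counts only through the het clones. Around the chromosome 13 cluster 1 gene was higher and 5 were lower, with a median of -0.31 and -2.10 as the lowest value. The median was -0.54 with 5 and -0.27 with 20 genes on each side. Cenpp, whose span holds all 3 cluster genes on the other strand, fell from 15.2 ± 2.85 to 8.45 ± 0.793 CPM (SD, n = 3 each; log2 fold change -0.84, edgeR adjusted p = 0.0197). Its adjusted p was 0.0666 and 0.0614 without het replicate 2 and 3, and 0.0545 and 0.0862 without knockout replicate 1 and 2. Use of strand in the counting was not given in the sources used here. Around Podn 8 were lower and 0 higher (0 also by DESeq2, by limma-voom and at an unadjusted p under 0.05), with a median of -0.37 (-0.47 with 5 and -0.20 with 20 genes on each side), and Echdc2 was the lowest at -3.62. Around Fmod and Prelp 5 were lower and 0 higher (1 by DESeq2, 1 by limma-voom and 1 at an unadjusted p under 0.05), with a median of -0.24, or -0.52 with 5 genes on each side. Around Dcn and Lum 2 were lower and 0 higher (0 by DESeq2, 0 by limma-voom and 2 at an unadjusted p under 0.05), with a median of -0.03. The stretches were of unlike size: the 20 genes spanned 11649 kb around Dcn and Lum and 4071 kb around the chromosome 13 cluster. They spanned 2375 kb around Bgn, 1928 kb around Fmod and Prelp and 1655 kb around Podn. With the local median of 20 genes on each side taken out, the log2 fold changes were -9.88 for Bgn, -3.59 for Ogn, -4.58 for Omd and -2.86 for Aspn, and all 4 still passed. In that run Podn still did not pass (-2.99, edgeR adjusted p = 0.0721), and Cenpp no longer did (-0.53, adjusted p = 0.0894).

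**Figure D3:**
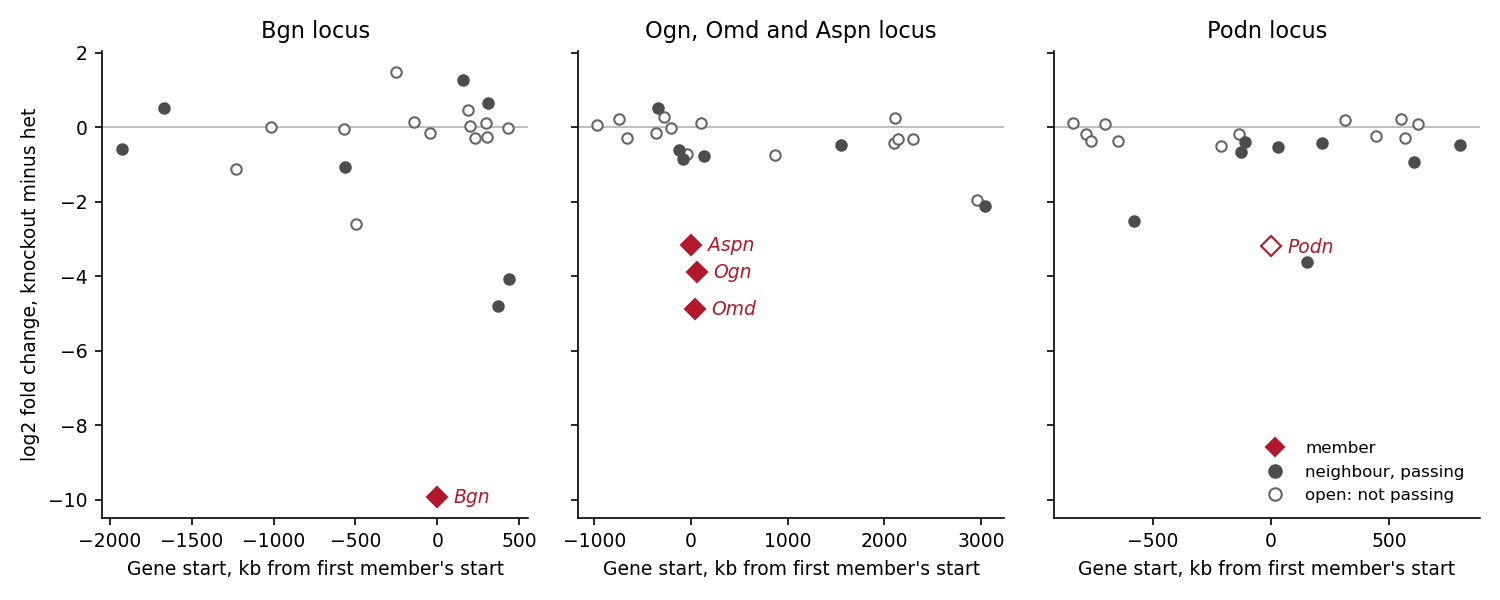
Log2 fold change (knockout minus het) of the proteoglycan genes (red diamonds) and of the 10 nearest tested genes on each side (circles), against distance in kb from the first member's start. Filled symbols passed and open ones did not, and Bgn at -9.91, Omd at -4.88, Ogn at -3.88 and Aspn at -3.16 lie below every plotted neighbour of their locus.

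Profiles over the 6 clones were compared by the root mean square difference of log2(CPM + 0.5), each centred on its own mean, with genes of at least 5 CPM on average. This is a description over 6 libraries, and the offset flattens the low genes. The nearest profile to Bgn was that of Col1a2 (difference 0.84), a chain of collagen I, at 1930, 408 and 830 CPM in the het and 0.855, 1.23 and 0.362 CPM in the knockout clones. Het replicate 2 was the lowest het clone for both genes. Trim44 followed at 1.06. For Ogn the nearest were Zfp287 (0.30) and Map1a (0.34), a microtubule-associated protein gene at 75.9, 71.6 and 88.7 against 4.09, 4.74 and 15.1 CPM, with knockout replicate 3 the highest knockout clone as for Ogn. Aspn was nearest to Il1r1 (0.11) and Fos (0.14), Omd to Slc6a9 (0.12) and Slc1a5 (0.13), and Podn to Setbp1 (0.19) and Tgfb3 (0.27). The proteoglycans were not each other's nearest profiles. Among 12745 other tested genes, the closest other member ranked 150 for Bgn (Ogn), 110 for Ogn (Omd), 396 for Omd (Ogn), 60 for Aspn (Podn) and 12 for Podn (Aspn).

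Of 9 further genes of the proteoglycan family 6 were tested, with 1 higher, 1 lower and 4 not passing, and a median log2 fold change of 0.10 against -0.00 over all genes. With 6 genes, such a count is not set apart from the 28.1% of all genes that passed. Podnl1, the closest relative of Podn, stood at 8.02, 4.72 and 3.64 CPM in the het and 13.7, 17.3 and 10.7 CPM in the knockout clones, and rose (log2 fold change 1.35, SE 0.34, edgeR adjusted p = 0.0261). Chad, the gene of chondroadherin, a cell-binding cartilage protein, fell from 1.63 ± 0.273 to 0.613 ± 0.164 CPM (SD, n = 3 each; log2 fold change -1.40, SE 0.36, edgeR adjusted p = 0.0275). Each call ended in several of the runs that left out a clone, while the log2 fold changes ran from 1.13 to 1.72 for Podnl1 and from -1.55 to -1.21 for Chad. The adjusted p of Podnl1 was 0.0901 and 0.0682 without het replicate 2 and 3, and 0.0748 and 0.104 without knockout replicate 1 and 2. That of Chad was 0.0715 and 0.0905 without het replicate 2 and 3, 0.101, 0.0855 and 0.0564 without knockout replicate 1, 2 and 3, and 0.0627 with no filter on low counts. In the main run Chad was kept by that filter only through the het clones, since its knockout counts did not all reach the minimum. Its being tested thus already depended on a higher level there. Kera, a keratocan gene beside Lum, had no count, and Ecm2, next to Aspn on chromosome 13, had 1.27 ± 0.709 and 0.773 ± 0.312 CPM and did not pass (edgeR adjusted p = 0.336).

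Enzymes that build the sulfated chains changed in both directions. Of 22 genes for the linker and for chondroitin or dermatan sulfate, 19 were tested. Of these 5 were higher and 6 lower (13.9% and 14.2% over all genes), with a median of -0.03. Chst3, which sulfates chondroitin, fell from 11.7 ± 1.4 to 1.22 ± 0.484 CPM (log2 fold change -3.25, edgeR adjusted p = 0.0014, n = 3 each), and the chain polymerase gene Chsy1 from 36.7 ± 0.595 to 18.9 ± 2.32 CPM (-0.96, adjusted p = 0.00271). Csgalnact2, which starts chondroitin chains, rose from 41.8 ± 4.91 to 82.3 ± 11.5 CPM (0.98, edgeR adjusted p = 0.00413), and B3gat3, which completes the linker, from 31.1 ± 5.93 to 56.7 ± 4.24 CPM (0.87, adjusted p = 0.00868). The pair of xylosyltransferase genes that begin every such chain moved apart, an observation singled out after their values were seen: Xylt1 fell (11.6 ± 8.15 to 0.375 ± 0.441 CPM, edgeR adjusted p = 0.0113) and Xylt2 rose (26.1 ± 2.08 to 40.3 ± 3.87 CPM, edgeR adjusted p = 0.00994). Without knockout replicate 2 the adjusted p was 0.058 for Xylt1 and 0.0516 for Xylt2, and without knockout replicate 3 the log2 fold change of Xylt1 was -6.48 in place of -4.87. Xylt1 passed the filter on low counts only through the het clones, so its being tested already depended on a higher level there. The same held for Chst7, also lower. Chst15, among the higher genes, was kept only through the knockout clones. The number higher was 3, 3, 2 and 3 without het replicate 3 and without knockout replicates 1, 2 and 3.

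A list of 17 genes held those for keratan sulfate chains and sulfate supply, and also the tyrosine sulfotransferase genes Tpst1 and Tpst2. Of the 17 genes 14 were tested, with 3 higher (Tpst2 among them), 2 lower (Tpst1 among them) and a median of -0.01. With 14 genes, such a count is not set apart from the 13.9% of all genes that were higher and the 14.2% that were lower. Fut8, which adds core fucose to N-glycans, rose from 15.8 ± 2.58 to 29.3 ± 1.47 CPM (log2 fold change 0.89, edgeR adjusted p = 0.00623, n = 3 each) and did not pass with the local median taken out (0.47, adjusted p = 0.0568). Tpst2, a tyrosine sulfotransferase gene, rose from 40.8 ± 6.23 to 77.9 ± 11.6 CPM (0.93, edgeR adjusted p = 0.00688), and B4galt3 rose (0.65, adjusted p = 0.0128, but 0.0562 without knockout replicate 2). Chst1, the keratan sulfotransferase gene, stood at 16.5, 1.86 and 3.32 CPM in the het and 0.427, 1.05 and 0.362 CPM in the knockout clones, and fell (-3.56, edgeR adjusted p = 0.0354). Without het replicate 1, which was far above the other het clones, the log2 fold change was -2.08 (adjusted p = 0.0352), and without knockout replicate 2 it was -4.17. Its adjusted p was 0.122, 0.0788 and 0.105 without knockout replicates 1, 2 and 3, 0.101 with limma-voom, 0.0505 with the local median taken out and 0.0626 with no filter. Chst1 passed the filter on low counts only through the het clones. Library totals, or leaving out het replicate 2 or 3 or knockout replicate 3, left 1 lower gene on the list, and leaving out knockout replicate 1 or 2 left 0.

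Most of the tested genes for collagens that these proteoglycans bind fell. Of 11 genes 10 were tested, with 0 higher by edgeR and 7 lower (13.9% and 14.2% over all genes). Their median log2 fold change was -2.49. Col1a2 and Col6a3, both among the lower genes, passed the filter on low counts only through the het clones, so their being tested already depended on a higher level there. Higher were 1 by DESeq2, 0 by limma-voom and 1 at an unadjusted p under 0.05 (Col5a1, a fibril-starting collagen V chain, singled out after its values were seen, at 438 ± 48.9 and 593 ± 111 CPM). Col1a2 fell from 1056 ± 786 to 0.816 ± 0.436 CPM (log2 fold change -10.36, edgeR adjusted p = 0.00124, n = 3 each), and Col1a1, the other chain of collagen I, from 1229 ± 245 to 7.4 ± 5.75 CPM (-7.36, adjusted p = 0.00128). Without het replicate 1 the log2 fold change of Col1a2 was -9.59, and without knockout replicate 3 that of Col1a1 was -8.19. Col6a1, a chain of the beaded collagen VI, fell from 429 ± 111 to 68 ± 32.8 CPM (-2.65, edgeR adjusted p = 0.00447), and Col12a1, of a fibril-surface collagen, from 435 ± 55 to 123 ± 38.1 CPM (-1.82, adjusted p = 0.00271). Col1a1 and Col1a2 are also on the fibroblast marker list described above, and the part of that list in the result was not tested.

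Enzymes that process and cross-link collagen were mixed. Of 10 genes 9 were tested, with 3 higher and 1 lower (13.9% and 14.2% over all genes) and a median of -0.27. Lox, the lysyl oxidase gene, fell from 453 ± 70.6 to 81.3 ± 24.5 CPM (log2 fold change -2.48, edgeR adjusted p = 0.00113, n = 3 each), while Pcolce2, an enhancer of procollagen cleavage, rose from 30.9 ± 12.2 to 108 ± 25.8 CPM (1.81, adjusted p = 0.00817). Bmp1, whose protease trims procollagen and the biglycan propeptide, rose from 107 ± 21.3 to 180 ± 19.1 CPM (0.75, edgeR adjusted p = 0.0152), with adjusted p-values of 0.0556, 0.0538 and 0.0672 without het replicate 2, het replicate 3 and knockout replicate 2. Loxl4 rose too (0.84, edgeR adjusted p = 0.0175), but its adjusted p was 0.186 with the local median taken out and 0.0539, 0.0591 and 0.0701 without het replicate 2, knockout replicate 1 and knockout replicate 2. Without het replicate 2 or knockout replicate 2 a single gene of the list was higher (1), and without het replicate 1 the number lower was 2.

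Of 12 genes for proteases that cleave these proteoglycans, 9 were tested. Of these 1 was higher and 3 were lower (13.9% and 14.2% over all genes), with a median of -0.74. Htra1, a secreted serine protease gene, fell from 70.2 ± 10.6 to 2.66 ± 1.22 CPM (log2 fold change -4.73, edgeR adjusted p = 0.000576, n = 3 each). Mmp14, of a membrane-bound metalloprotease, fell from 470 ± 44.8 to 282 ± 33.1 CPM (-0.74, edgeR adjusted p = 0.00865, but 0.0502 without knockout replicate 2). Mmp2, a gelatinase gene, stood at 4.19, 46 and 49.4 CPM in the het and 1.59, 1.6 and 1.09 CPM in the knockout clones and fell (-4.54, edgeR adjusted p = 0.0199), with adjusted p-values of 0.0806, 0.0801 and 0.0743 without knockout replicates 1, 2 and 3, 0.188 with limma-voom, 0.0625 with no filter and 0.0591 on log2(FPKM + 1). Mmp13, a collagenase gene, rose (3.51, edgeR adjusted p = 0.0375) mainly through knockout replicate 3, at 8.12 CPM against 1.16 and 1.11 CPM in the other knockout clones. Without knockout replicate 3 the log2 fold change was 1.89 (adjusted p = 0.0415). The adjusted p was 0.0592, 0.117 and 0.101 without het replicates 1, 2 and 3 and 0.0947 with limma-voom. Mmp13 passed the filter on low counts only through the knockout clones. Without knockout replicate 2, 1 gene of the list was lower, and without any 1 of the het clones 0 were higher.

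Of 15 genes for receptors that bind these proteoglycans 13 were tested, with 0 higher by edgeR, 2 lower, 11 not passing and a median of -0.16. With 13 genes, such a count is not set apart from the 14.2% of all genes that were lower and the 13.9% that were higher. Higher were 0 by DESeq2, 0 by limma-voom and 2 at an unadjusted p under 0.05. Egfr, the EGF receptor gene, whose product binds decorin, fell from 49.1 ± 3.68 to 1.98 ± 0.867 CPM (log2 fold change -4.64, edgeR adjusted p = 0.00041, n = 3 each). Tlr2, an innate immune receptor gene whose product binds biglycan, fell from 21.2 ± 1.51 to 5.58 ± 2.63 CPM (-1.92, edgeR adjusted p = 0.00666). Without knockout replicate 3 the number of receptor genes that were higher was 1, and without het replicate 1 or knockout replicate 3 the number lower was 3.

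Of 16 genes for TGF-beta ligands, receptors and latency proteins all were tested. By edgeR 0 were higher and 8 lower (13.9% and 14.2% over all genes), with a median of -0.88. Ltbp2, among the lower genes, passed the filter on low counts only through the het clones. Higher were 1 by DESeq2, 0 by limma-voom and 1 at an unadjusted p under 0.05. Thbs1, of thrombospondin, an activator of latent TGF-beta, fell from 4856 ± 1457 to 690 ± 299 CPM (log2 fold change -2.82, edgeR adjusted p = 0.00453, n = 3 each). Ltbp4, a latent TGF-beta binding protein gene, fell from 23.3 ± 10.9 to 3.67 ± 1.5 CPM (-2.66, edgeR adjusted p = 0.00633), and Tgfbr3, the co-receptor betaglycan, from 74.4 ± 13.8 to 28.2 ± 8.54 CPM (-1.40, adjusted p = 0.00784). The ligand gene Tgfb3 fell from 73.6 ± 23.5 to 19.5 ± 9.07 CPM (-1.91, edgeR adjusted p = 0.0133, but 0.06 without knockout replicate 2), whereas Tgfb1 had 25.3 ± 5.07 and 32.3 ± 4.71 CPM and did not pass (adjusted p = 0.185). The number lower was 4, 3 and 5 without knockout replicates 1, 2 and 3, and 5 with limma-voom.

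**Figure D4:**
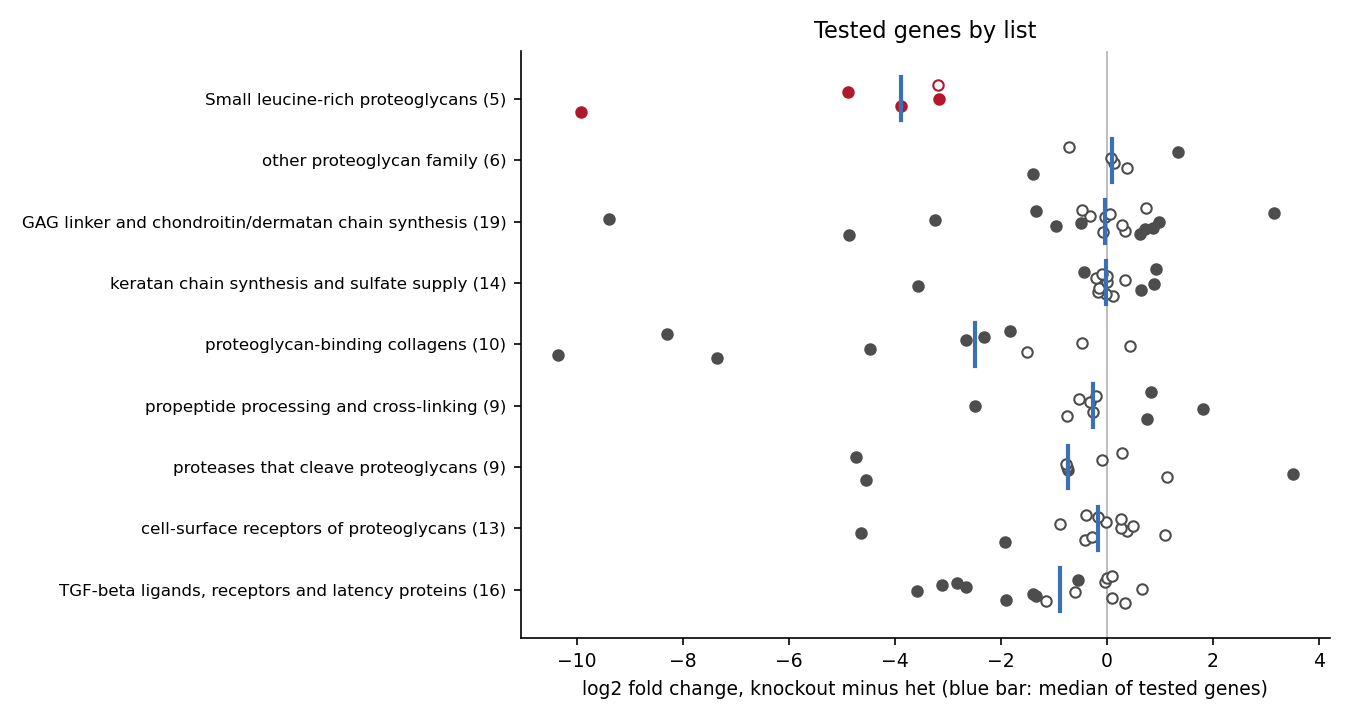
Log2 fold change (knockout minus het) of every tested gene of the proteoglycan group (red) and the related lists (grey), with the number tested in brackets and a blue bar at each median. Filled points passed; collagens (median -2.49) and TGF-beta genes (median -0.88) lie mostly to the left, while chain-building enzymes lie on both sides of 0.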

How the data were processed

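Poly(A) RNA libraries of 6 clones, 3 per genotype, were prepared with a stranded kit per the labels' protocols. The submitters' processing notes name Trimmomatic 0.36, kallisto 0.42.5, edgeR and build GRCm38.p4. Files deposited by the authors hold estimated counts of 96626 transcripts, FPKM of 24799 transcripts, and their own comparison with log2 fold changes and p-values. GENCODE M21 gave the gene of 95301 transcripts and the authors' deposited table that of 253. The other 1072, with 0.0173% to 0.0273% of the counts, were left out. Counts were summed per gene, rounded, filtered with filterByExpr (count minimum 10, total minimum 15) and tested two-sided with edgeR 4.0.16 (R 4.3.3, TMM, robust quasi-likelihood F test, Benjamini-Hochberg over 12746 genes), and the procedure was tested on simulated data. A gene near 0 in 1 genotype was kept by this filter only through the other genotype, where its level was higher. Besides members, this held for Col1a2, Col6a3, Krt19, Xylt1, Chst7, L1cam, Ltbp2, Chad and Chst1, among others (het clones), and for Chst15 and Mmp13 (knockout clones). Pooled folds are ratios of summed counts. Their exact 95% intervals and the floors of 3 counts cover counting error only. Alternatives used DESeq2 1.42.0, limma 3.58.1 (voom and log2 FPKM), other scalings and filters, the local chromosome median taken out, and each clone left out. Libraries of 1 genotype differed by more than counting noise (chi-square over degrees of freedom 12.2 to 72.3), so each counts as 1 sample.

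The 9 members and all lists were chosen with earlier results of these data known. All members were named. From each related list up to 4 passing genes were named by smallest adjusted p, with exceptions marked. For each tested member the 2 nearest profiles were named.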

Additional observations from a re-analysis of the deposited data

How the results depend on the processing

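None of the 9 genes was higher in any alternative run. With edgeR 4 were lower, and with DESeq2 7 of 8 tested were. DESeq2 also passed more genes over the whole table, 4449 in either direction against 3586 with edgeR, where 14.2% of tested genes were lower. Leaving out each clone gave 4 to 7, with 7 of 7 tested without knockout replicate 3. These counts hold Dcn, Fmod, Omd, Aspn and Podn, where tested, through their het level alone, and are a description only. In the main run on all 6 clones Bgn too was kept only through its het clones. Bgn and Ogn passed in 15 of 15 alternatives, Omd in 15 of 15 and Aspn in 13 of 13. On log2(FPKM + 1) the log2 fold change of Bgn was -7.04 and that of Omd -1.81, since the pseudocount shrinks low values. Genes passing over the whole table numbered 3586, and 1565 to 3825 with each clone left out. The related lists held 30 lower genes (16 to 33 with each clone left out) and 13 higher (6 to 12). Other scalings moved the median log2 fold change by -0.0103 (RLE) and -0.0158 (library totals). The mean share of Ogn in the knockout clones was 68.7% by TPM and 78% by the authors' FPKM, which list 3 of the genes. No result reversed. No paired analysis was possible because the replicate numbers were given in accession order and only name the clones. Dcn, Fmod and Prelp rest on few reads and Lum on none.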
